A study of Homo sapiens with 14 samples.

Results

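PAX3-FOXO1 expression was compared with an empty vector in LHCN myoblasts, an immortalised human muscle precursor line, by ATAC-seq, an assay in which the Tn5 transposase inserts sequencing adapters into accessible DNA. The comparison uses 4 of the 14 libraries of the series, 2 with vector and 2 with overexpressed PAX3-FOXO1, all taken after 72 h and chosen by their titles. Per library, 100000 cells were treated with Tn5 for 30 min and the DNA was amplified over 12 cycles of PCR. The other 10 libraries come from RH30, an alveolar rhabdomyosarcoma line that carries its own PAX3-FOXO1 fusion, and serve below as a readout on which no call was based. Their labels name DMSO, QC6352, a control hairpin or hairpins against KDM4B, so the RH30 libraries are not all untreated. The labels name neither the promoter of the construct nor separate cultures for the replicates, so the spread behind each p-value may be technical.

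PAX3-FOXO1 joins the DNA-binding domains of PAX3, a regulator of embryonic muscle precursors, to the activation domain of the forkhead factor FOXO1. The fusion defines most alveolar rhabdomyosarcomas, tumours of muscle lineage that express myogenic factors without completing differentiation. It is known for binding distal enhancers and for raising genes such as MYCN, FGFR4 and MYOD1.

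The deposited data are peak lists, which held 174811 and 173256 peaks with vector and 175594 and 170390 with PAX3-FOXO1. Each was trimmed to its 170390 strongest peaks and overlapping peaks were merged, which gave 234279 regions. Strength is given as the percentile of a peak within its own list, where 100 is the strongest. Across the 111758 regions present in all 4 lists (47.7%), Spearman's rho of the percentiles was 0.963 within the vector group and 0.939 within the PAX3-FOXO1 group, against 0.748 to 0.792 across the groups. These are descriptions across regions, which are not independent replicates.

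By rank within the lists, most sites that appeared or disappeared with PAX3-FOXO1 were weak. A small set of gained sites, but no lost site, reached the 90th percentile in both libraries of its group. A region was gained if both PAX3-FOXO1 lists and neither vector list had a peak, which held for 19093 regions (8.15% of all regions). It was lost in the reverse case, which held for 19778 regions (8.44%). More cells with an open site and a more open site in each cell cannot be told apart in such bulk libraries. The counts were alike, and so were the median percentiles, at 32.9 and 29.5 in the PAX3-FOXO1 libraries for gained and 26.03 and 27.13 in the vector libraries for lost regions. The upper ends differed. Gained peaks reached the 90th percentile or more in both PAX3-FOXO1 libraries at 80 regions, whereas no lost region did so in both vector libraries. This contrast is one of ranks, since the authors' fold values (a ratio over background) differed between lists at like percentiles. A lost region at 90.1 in vector replicate 1 had a fold of 40.8. A gained region at 90.4 in PAX3-FOXO1 replicate 1 had 26.3. Between the 75th and 90th percentiles there were 514 gained and 35 lost regions. Among the 50000 strongest peaks of both libraries, 808 gained regions had no peak of any strength in the deposited vector lists, against 84 lost regions in the reverse comparison. Leaving out any 1 library, so that fewer lists must agree, gave at least 953 such gained and at most 209 such lost regions. No exact permutation test was run on these counts, since 2 against 2 libraries allow no p below 0.333.

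**Figure D1:**
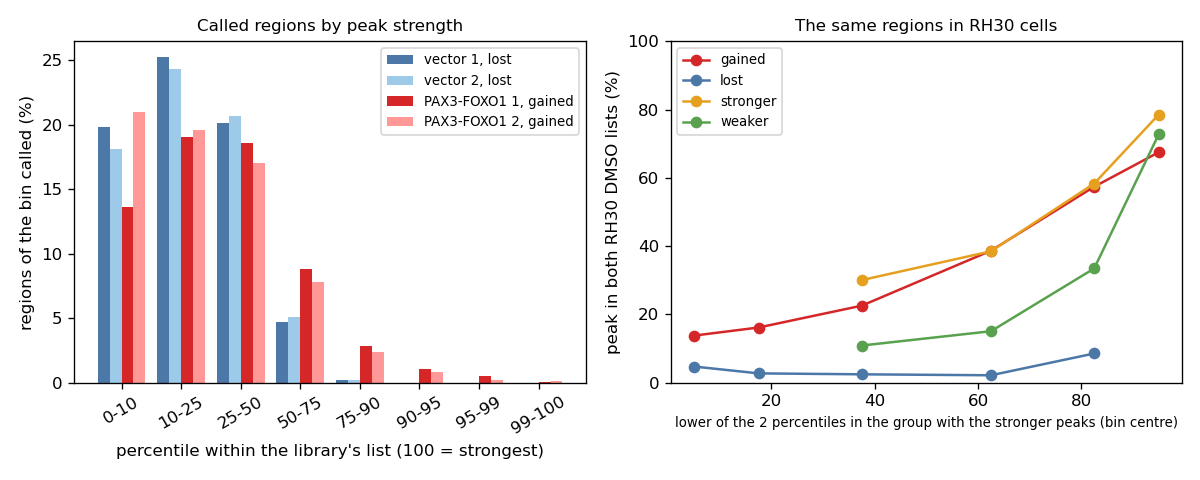
Left, share of regions in each percentile bin (x axis, within the library's own list) that were called lost (2 vector libraries, blue) or gained (2 PAX3-FOXO1 libraries, red), in percent. Right, share of each class of region with a peak in both RH30 DMSO lists (y axis, percent) against the lower of the 2 percentiles in the group with the stronger peaks (x axis, bin centre, bins of 20 or more regions). Gained calls continue above the 90th percentile, where lost calls all but end, and the RH30 share of gained regions rises from 13.8% to 67.5%, while that of weaker regions rises to 72.8%.

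The strongest gained regions were named by locus. No annotation of hg19, the build of the files, was used here: gene names were placed from general knowledge of hg19 positions, at the level of the locus, and say nothing about exons, introns or promoters. The leading region, on chromosome 6 from 6320530 to 6321546 at F13A1, which encodes the A subunit of coagulation factor XIII, stood at percentiles 98.97 and 99.09 with PAX3-FOXO1 and had no vector peak. A region at ESRRG, an orphan nuclear receptor gene, on chromosome 1 from 217075929 to 217077130, stood at 98.3 and 97.2. At TENM4, a teneurin adhesion gene, the strongest gained region (chromosome 11, 78973888 to 78974506) stood at 97.2 and 97.0. Near BMP2, which encodes a bone morphogenetic protein, a region on chromosome 20 from 6678007 to 6679597 stood at 97.2 and 95.3. Other regions of the leading 25 included those at SORCS1, RABGAP1L, RBFOX1 and DLG2, near SEMA6A, ZFPM2 and SGCD, and between MMP16 and RIPK2. All 25 reached at least 94.3, and 22 had no peak in either deposited vector list.

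The leading lost regions were weaker and narrower than the leading gained ones. The 25 strongest stood between percentiles 76.9 and 90.1 with vector, and none had a peak in the deposited PAX3-FOXO1 lists. Near PPP1R3C, which encodes a glycogen-targeting phosphatase subunit, a region on chromosome 10 from 93402428 to 93403191 stood at 87.4 and 89.3 with vector. A region at COL1A2, a fibrillar collagen gene (chromosome 7, 94053054 to 94053597), stood at 81.5 and 78.9. One near TNS3, a focal adhesion gene, on chromosome 7 from 47644184 to 47644909, stood at 82.3 and 80.3. Others lay at RIC8B, TBC1D1, NCKAP5, ELL, NRCAM, RIMS1, NIN and HECW1. Of the 25, 6 lay on chromosome 7. Median region width was 708 bp among the 25 gained and 405 bp among the 25 lost.

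**Figure D2:**
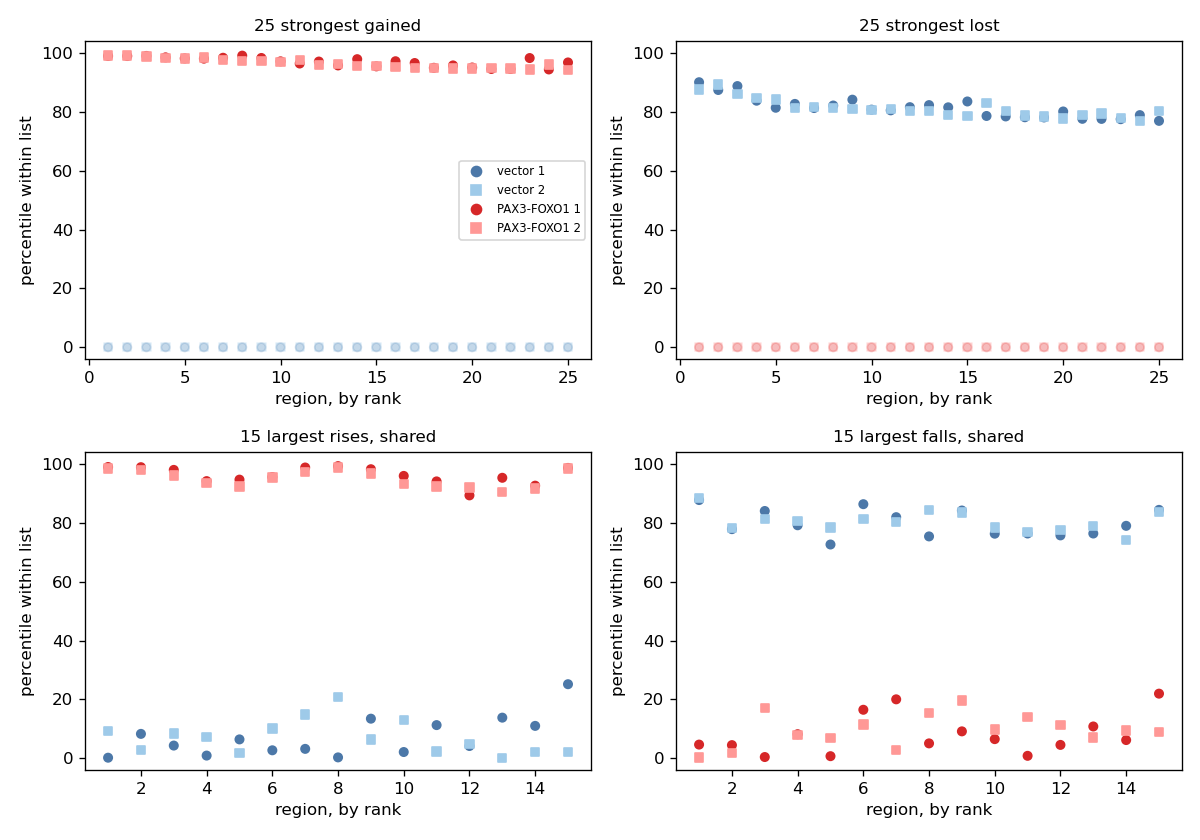
Percentile within the list (y axis) in each of the 4 libraries for the 25 strongest gained and lost regions and the 15 shared regions with the largest rise or fall, ordered by rank (x axis); faint symbols at 0 mark libraries with no peak. The gained regions stand at 94.3 or more, the lost ones at 76.9 to 90.1, and in the lower panels the groups do not overlap in any region shown, which the choice of these regions fixed.

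Shared regions changed in strength in both directions. Percentiles were turned into normal scores and tested with limma over all 111758 shared regions, with Benjamini-Hochberg adjustment. With PAX3-FOXO1, 16371 regions were stronger (14.6%) and 19260 weaker (17.2%) at an adjusted p under 0.05. The median change was +23.2 percentile points in the stronger and -18.7 in the weaker regions, beside -1.28 over all shared regions. Without any model, both PAX3-FOXO1 percentiles lay above both vector percentiles with means at least 10 points apart in 20094 regions (18.0%), and below in 24420 (21.9%). Leaving out vector replicate 1 or 2 lowered the weaker count to 10705 or 9427 in limma, and the stronger count to 14570 or 13394. A test without a trend of the spread on strength gave 9696 stronger and 8341 weaker regions, and scores centred on each chromosome's median, an alternative added later, gave 17207 and 16878, so which direction was more frequent depends on these choices.

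The largest changes ran upwards. From the 25th percentile or below, or from absence, to the 90th or above in both libraries, 142 regions opened and 0 closed. With limits of 25 and 75, 1027 opened and 123 closed. These counts include gained and lost regions described above, with 80 gained regions among the 142, so they partly repeat that difference. The largest rise was at RPS6KA2, a ribosomal S6 kinase gene (chromosome 6, 167164547 to 167165169), with percentiles of 0.20 and 9.37 with vector against 98.97 and 98.50 with PAX3-FOXO1. Its normal score rose by 4.34 (SE 0.33, limma adjusted p 2.48e-07). Near PAX7, the paralogue of PAX3 that marks muscle stem cells, a region on chromosome 1 from 19140740 to 19141552 went from 0.92 and 7.22 to 94.2 and 93.6 (limma adjusted p 3.06e-07). A region between TPRG1 and TP63, a p53-family gene, went from 2.72 and 10.1 to 95.6 and 95.4. In none of these did the groups overlap, which their choice as the largest rises fixed.

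The largest fall (chromosome 12, 71465264 to 71465828) went from percentiles 87.7 and 88.4 with vector to 4.66 and 0.25 with PAX3-FOXO1, a limma adjusted p of 4.96e-06. At RAPGEF3, a cyclic AMP-regulated exchange factor gene, a region on chromosome 12 from 48130594 to 48131467 went from 79.2 and 80.5 to 8.18 and 8.01. One at NEBL, which encodes the actin-binding protein nebulette (chromosome 10, 21290948 to 21291679), went from 75.4 and 84.3 to 5.06 and 15.5. The 15 largest falls spanned 68.6 to 85.6 points, against 84.9 to 93.9 for the 15 largest rises.

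**Figure D3:**
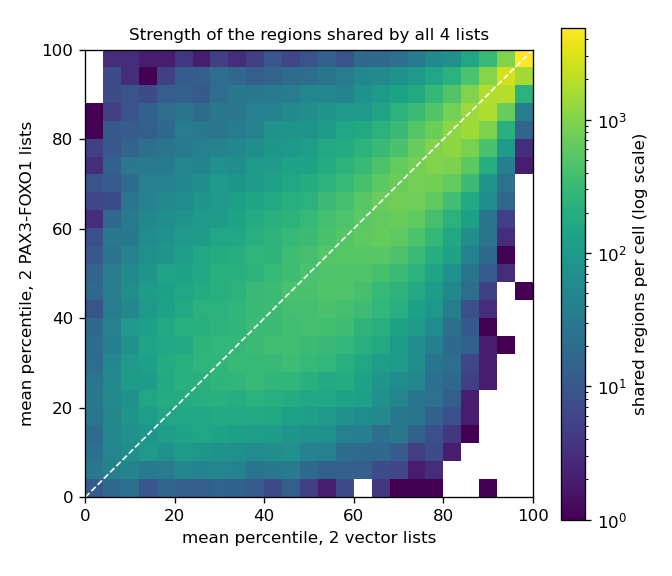
Mean percentile in the 2 PAX3-FOXO1 lists (y axis) against that in the 2 vector lists (x axis) for the 111758 shared regions, as counts per cell of a grid (colour, log scale), with the line of equality dashed. Regions lie on both sides of the line. The upper left corner, weak with vector and strong with PAX3-FOXO1, holds few regions, and the lower right corner holds fewer.

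Peaks widened or narrowed with their strength. In the stronger regions the median peak width was 344 and 341 bp with vector and 443 and 437 bp with PAX3-FOXO1. In the weaker regions it was 476 and 482 bp with vector and 356 and 370 bp with PAX3-FOXO1. The groups did not overlap in either class. Gained and lost regions were narrow, with medians of 298 and 272 bp, and 457 bp over all shared regions. Peak width and peak strength come from the same signal, so width is no separate evidence of change.

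Summits of shared regions lay close together, which the merging of overlapping peaks favours. In stronger regions the median distance between the strongest summits was 16 bp within the vector group and 12 bp within the PAX3-FOXO1 group. Across the groups it was 16 or 17 bp. In weaker regions it was 11 and 18 bp within the groups and 15 to 17 bp across them. Distances over 100 bp held for 3.59% and 1.53% of stronger regions within the groups, and 4.27% to 4.66% across. For weaker regions these shares were 1.59% and 4.98% within, and 4.26% to 5.45% across. Each deposited peak has a single summit, so several summits in a region mean several peaks. In the weaker regions the share with more than 1 peak was 3.16% and 2.72% with vector and 5.16% and 5.54% with PAX3-FOXO1. In the stronger regions it was 3.49% and 3.50% with vector and 2.16% and 2.57% with PAX3-FOXO1. Of gained regions 0.351% and 0.361%, and of lost regions 0.258% and 0.197%, held more than 1 peak in the libraries of their own group.

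Gained regions stood farther from shared regions than lost ones did. Shared regions are only part of the chromatin open with vector, and distance to all vector peaks was not tested. The median distance to the nearest shared region was 9.16 kb for gained and 5.35 kb for lost regions. More than 50 kb from any shared region lay 13.2% of gained and 2.78% of lost regions, and within 2 kb lay 15.9% and 24.1%. The distance to the next region of the same class was alike, with medians of 25.95 and 26.28 kb.

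Gains were dense in a few domains. The 1 Mb window with the most gains (chromosome 2, 1000001 to 2000000) contained 272 regions, 58 of them gained and 0 lost, and 32 stronger against 3 weaker shared regions. The window that contains MYCN (chromosome 2, 16000001 to 17000000) held 55 gained and 1 lost of 154. A window at DLG2, which encodes a synaptic scaffold protein (chromosome 11, 84000001 to 85000000), held 42 gained and 0 lost of 65. On chromosome 2 from 6000001 to 7000000, 37 of 51 regions were gained. The median window held 5 gained and 6 lost regions. Of the 5 windows with the most lost regions, 4 lay on chromosome 7, led by that from 130000001 to 131000000 with 33 lost and 2 gained.

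Among loci described as PAX3-FOXO1 targets, gains outnumbered losses. The list holds 28 loci with 790 regions, of which 138 were gained (17.5%, beside 8.15% over all regions) and 40 lost (5.06%, beside 8.44%). Shared regions of the list were stronger in 66 and weaker in 56 of 361 cases, with a median change of -0.15 points. TENM4 alone held 61 of the 138 gains, with 0 losses among its 110 regions, and 19 stronger against 0 weaker. Without TENM4 the list held 77 gained (11.3%) and 40 lost (5.88%) of 680 regions, and 47 stronger against 56 weaker, so the order of the latter turned. Gains exceeded losses at 17 loci and losses exceeded gains at 7, among them IGF1R (2 gained, 9 lost). The list was chosen with earlier results of these data known and is no independent evidence of its direction.

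MYCN, a transcription factor gene often raised in these tumours, held 7 gained and 0 lost regions in its interval, and all 4 shared regions were stronger. A region on chromosome 2 from 16029767 to 16030506 had no vector peak and stood at 92.6 and 90.8 with PAX3-FOXO1. That from 16052280 to 16052703 went from 24.4 and 24.6 to 93.0 and 90.5 (limma adjusted p 1.14e-07), and that from 16083468 to 16084571 from 44.8 and 52.1 to 92.6 and 90.3 (limma adjusted p 1.01e-06). These 3 regions had a peak in all 10 RH30 lists.

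Receptor genes differed among themselves. CXCR4, a chemokine receptor gene, held 8 gained and 0 lost regions of 16, the strongest on chromosome 2 from 136803641 to 136804293 at 87.4 and 92.9. FGFR4, a growth factor receptor gene, held 6 gained and 0 lost of 25, the strongest on chromosome 5 from 176532315 to 176533306 at 85.1 and 86.7, while the others were weak. Of the 10 shared regions at FGFR4, 0 were stronger and 1 was weaker. Its gained region from 176524137 to 176524533 had a peak in the deposited list of vector replicate 2. At PDGFRA, which encodes a platelet-derived growth factor receptor, 1 region was gained, 1 lost, 1 stronger and 6 weaker. MET, the hepatocyte growth factor receptor gene, held 2 gained, 3 lost, 3 stronger and 7 weaker regions, and lies on chromosome 7.

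**Figure D4:**
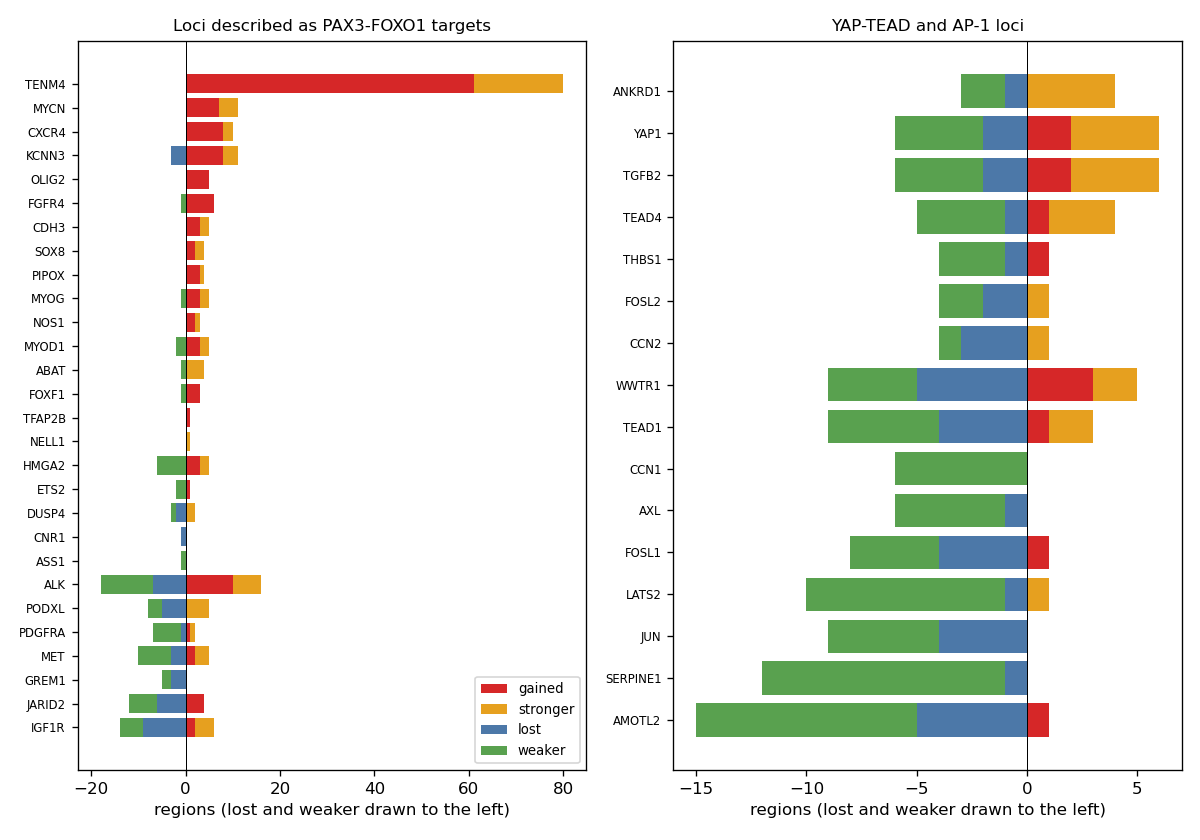
Number of regions (x axis) gained or stronger with PAX3-FOXO1 (to the right of 0) and lost or weaker (to the left) at each locus, for 28 loci described as PAX3-FOXO1 targets and 16 loci of YAP-TEAD and AP-1 genes; the x axes differ. TENM4 leads the first list with 61 gained and 19 stronger regions, and AMOTL2 ends the second with 5 lost and 10 weaker.

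In the intervals of myogenic regulators, the share of gained regions was close to that over all regions only with PAX7 included, and the share of lost regions was lower. Their 14 intervals held 30 gained (9.62%, beside 8.15% over all regions) and 17 lost (5.45%, beside 8.44%) of 312 regions. Of the shared ones, 20 were stronger (12.8%, beside 14.6% over all shared regions) and 22 weaker (14.1%, beside 17.2%). PAX7 held 15 of the 30 gains and 0 losses. Without PAX7 the list held 15 gained (5.28%) and 17 lost (5.99%) of 284 regions, both below the shares over all regions. PAX7 also held strong gains. Its leading gain was a region on chromosome 1 from 19019387 to 19020652 at 95.3 and 94.0 with PAX3-FOXO1. At MYOD1, a master regulator of myoblast identity, vector cells already had strong peaks, among them that on chromosome 11 from 17704710 to 17705637 at 90.1 and 91.6. A region from 17707478 to 17708086 was gained at 90.4 and 87.9. In the same interval a shared region from 17743558 to 17743908 fell from 82.5 and 77.6 to 21.04 and 28.41 (limma adjusted p 1.82e-05), beside a gained region from 17744065 to 17747340. At MYOG, a driver of differentiation, a region on chromosome 1 from 203058754 to 203059151 rose from 3.15 and 3.95 to 68.0 and 70.2 (limma adjusted p 9.86e-05). MYOD1 and MYOG are also members of the target list.

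Sarcomere and late muscle genes differed from locus to locus. Their 15 intervals held 18 gained (5.44%, beside 8.15% over all regions) and 26 lost regions (7.85%, beside 8.44%). Of 181 shared regions 28 were stronger (15.5%, beside 14.6% over all shared regions) and 38 weaker (20.99%, beside 17.2%). MYL1, a fast-muscle myosin light chain gene, stood at one end with 8 gained and 0 lost of 14 regions. Its region on chromosome 2 from 211183227 to 211184074 went from 9.75 and 14.4 to 91.3 and 90.2 (limma adjusted p 1.53e-07). MYL4, an atrial and embryonic light chain gene, stood at the other with 0 gained, 3 lost and 11 weaker of 19 shared regions. TTN, the titin gene, held 9 stronger and 1 weaker.

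Loci of YAP-TEAD and AP-1 genes, which act in growth and adhesion responses, held few gains and many weaker regions, while their share of lost regions was near that of all regions. Their 16 intervals held 12 gained (2.56%, beside 8.15% over all regions) and 37 lost (7.89%, beside 8.44%) of 469 regions. Of 285 shared regions 22 were stronger (7.72%) and 79 weaker (27.7%), beside 14.6% and 17.2% over all shared regions. No locus of the list had more gains than losses. At AMOTL2, an angiomotin family gene, 10 shared regions were weaker and 0 stronger, and 5 regions were lost. LATS2, a Hippo pathway kinase gene, held 9 weaker and 1 stronger, and a region on chromosome 13 from 21680050 to 21680660 went from 46.7 and 51.4 to 4.56 and 5.27 (limma adjusted p 0.00522). At CCN1, a matricellular protein gene and YAP target, 6 of 15 shared regions were weaker and 0 stronger. Not every locus leaned this way. ANKRD1 held 4 stronger and 2 weaker regions, YAP1 and TGFB2 each 4 stronger and 4 weaker, and CCN2 1 of each. Every other locus of the list held more weaker than stronger regions.

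FOXO1, one of the partner genes of the fusion, held only 22 regions. Of these, 2 were gained (9.09%, beside 8.15% over all regions) and 5 lost (22.7%, beside 8.44%). Of its 7 shared regions 2 were stronger and 0 weaker. The construct carries FOXO1 sequence, and whether its DNA contributed reads to the gained regions was not tested. The KDM4 histone demethylase genes, with 4 loci and 109 regions, held 7 gained (6.42%, beside 8.15% over all regions) and 11 lost (10.1%, beside 8.44%).

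Chromosomes differed in the balance of gains and losses. On chromosome 7, 4.87% of regions were gained and 11.3% lost, and 11.2% of shared regions were stronger against 29.9% weaker. Its deposited peaks numbered 12805 and 12462 with vector and 11270 and 10321 with PAX3-FOXO1. Chromosome 19 leaned the same way, with 3.84% gained, 8.96% lost, 4.17% stronger and 26.1% weaker, as did chromosome 22 with 4.75% gained and 10.1% lost. Without chromosome 7 there were 18306 gained (8.39%) and 17946 lost regions (8.23%), so the order of the counts turned. The cause of these shifts was not tested.

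**Figure D5:**
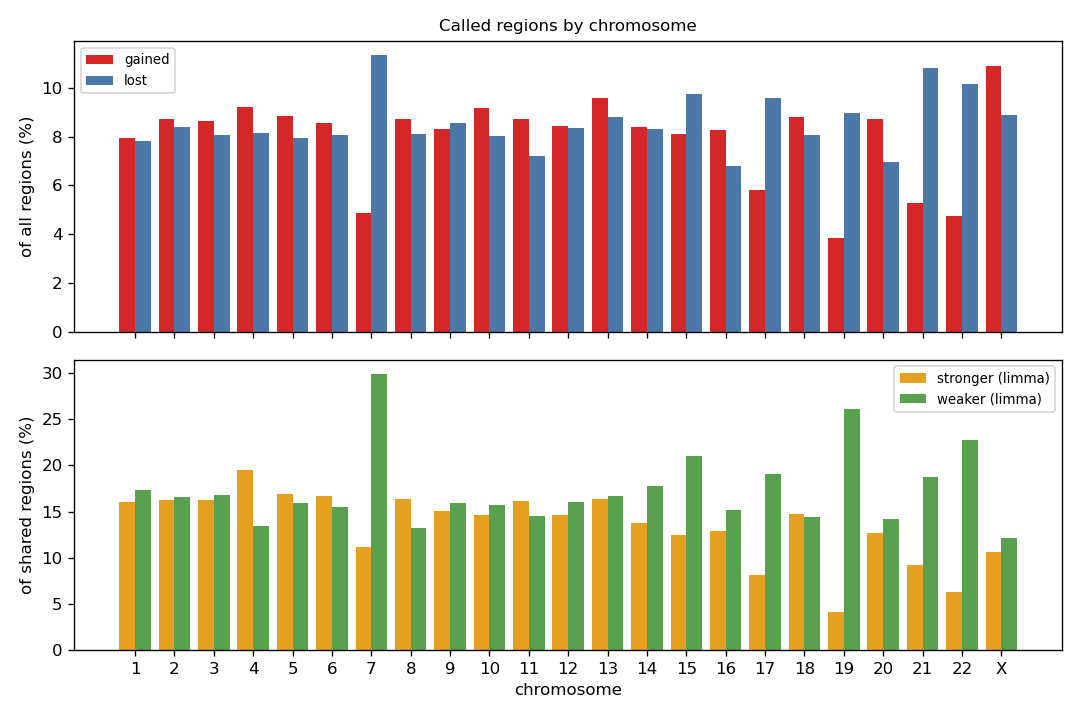
Share of all regions gained or lost (upper panel, percent) and share of shared regions stronger or weaker by limma (lower panel, percent) on each chromosome (x axis). Chromosome 7 has 4.87% gained and, of the chromosomes drawn, the highest shares lost (11.3%) and weaker (29.9%); chromosomes 19 and 22 lean the same way.

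Gained regions were open in RH30 far more often than lost ones. Each RH30 list was trimmed to its 93488 strongest peaks. A peak in both RH30 DMSO lists was found at 21.9% of gained and 3.14% of lost regions, and at 43.1% of shared regions. Among gained regions this share rose with strength, from 13.8% below the 10th percentile to 57.4% between the 75th and 90th and 67.5% above the 90th. Over shared regions, placed by the lowest of their 4 percentiles, it rose as well, so a rise with strength is not particular to gained regions. It was higher in each bin, from 19.6% below the 10th percentile to 68.98% between the 75th and 90th and 88.3% above the 90th. The bins are not matched for strength, since the lowest of 4 percentiles can lie below both PAX3-FOXO1 percentiles of a shared region. Among lost regions the share was 4.76% below the 10th percentile and 2.19% between the 50th and 75th. Between the 75th and 90th it was 8.57%, where only 35 regions (3 with a peak) were counted. Stronger regions had such a peak in 54.4% and weaker regions in 34.3% of cases. Of the 25 strongest gained regions, 20 had a peak in both DMSO lists and 18 in all 10 RH30 lists, while 19 of the 25 strongest lost regions had a peak in no RH30 list. Over the 10 RH30 libraries, the share of gained regions with a peak ranged from 18.1% to 31.0% and that of lost regions from 3.44% to 7.50%. The lowest gained share and the highest lost share both came from QC6352 replicate 1, a treated library. The ranges over the 10 libraries did not overlap. In 6 of these libraries, all of the hairpin experiment, the peak names carry the tag of another hairpin than the label, and the DMSO lists, whose names match, are therefore given first.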

How the data were processed

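Chromatin accessibility was measured in 4 LHCN libraries, 2 per group. The submitters' processing notes list MACS2 2.1.1, SAMtools 1.3.1, Picard 1.65, BWA 0.7.12-r1039 and build hg19. Their settings, read filters and Tn5 shift are not stated in the sources at hand, and depth is unknown. The authors deposited 1 peak list per library with a score (not used), a fold value that is a ratio over background, −log10 p (not used), −log10 q and a summit offset. The authors' fold values only describe or rank peaks within a list. Within each list fold and −log10 q correspond exactly and take 463 to 601 distinct values, so many peaks are tied, up to 7443 at a single value. Peaks were ranked by −log10 q, then fold, then position, and lists were trimmed and merged (1 bp). The lowest −log10 q kept was 4.93 and 4.14 with vector and 3.94 and 2.60 with PAX3-FOXO1, and absence means no peak above these limits.

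Normal scores of the percentiles of shared regions were fitted with limma (variance trend, adjusted p threshold 0.05); the code was tested on simulated data. Named regions are the 25 strongest gained and lost and the 15 largest rises and falls. Gene lists are intervals on a 100 kb grid placed from general knowledge of hg19; the chromosome and order of genes were checked against the RefSeq table of GRCh38.p14. The planned rule named regions by position only, so these gene names, the intervals and the regions printed within them were chosen after values were seen. The members and lists were chosen with earlier results of these data known. Cell type markers at promoters, motifs and sequences were not analysed here.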

Additional observations from a re-analysis of the deposited data

How the results depend on the processing

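Limits: with 2 libraries per group, counts of calls depend on each library, and depth is unknown. The 50000 strongest peaks alone gave 7285 gained, 6574 lost and 35540 shared regions. Among strong regions, the 20000 strongest peaks gave 107 gained and 0 lost, and the 100000 strongest 4616 gained and 2754 lost. A difference of 20 points or more left 11216 regions higher and 11227 lower. Without a variance trend limma called 9696 stronger and 8341 weaker. With RH30 lists as deposited, 6.80% of lost regions had a peak, against 4.91% (mean of 10 libraries).

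Leaving out 1 library at a time gave 23455 to 36575 gained and 24672 to 31961 lost regions, since fewer lists must agree, 131 to 209 strong lost regions, and 9427 to 21952 weaker regions in limma. The fit then rests on 1 library in a group, which is assumed to vary like the others.

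Same-numbered libraries share only a number: the correlation of their deviations from the group means was 0.057. With that number as a replicate block, limma called 18764 stronger and 23596 weaker regions, and the gained, lost and shared counts stayed at 19093, 19778 and 111758 because the rule requires both libraries either way.

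Ranking by fold could not change anything, since fold and −log10 q correspond exactly, and it says nothing about stability. Chosen after seeing the data, giving tied peaks their mean percentile left 99.8% of shared regions with the same limma call, and centring the scores per chromosome gave 17207 stronger and 16878 weaker regions, which turns the order of the 2 counts. Of the 25 named gained regions 3 lost their call with the lists as deposited, where a weak vector peak appears; the 15 named rises and 15 named falls kept direction and call under every alternative that contained them. YAP-TEAD and AP-1 loci had more lost than gained and more weaker than stronger regions under all 14 and 15 settings run. Both counts include the main setting and ranking by fold, which could not differ from it. The list was chosen with earlier results of these data known, so the counts are no independent evidence of its direction.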

Other observations

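The peak names inside 6 of the 14 lists disagree with the labels. The 2 lists labelled shCtrl carry the tag sh813, the 2 labelled shKDM4B-813 carry sh814, and the 2 labelled shKDM4B-814 carry shCtrl. The other 8 lists, including all LHCN lists, match. Which of the names is right was not settled here, and no comparison between hairpins is made.

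The shared region with the highest mean percentile, on chromosome 2 from 33141199 to 33141694, had authors' fold values of 2109 and 2046 with vector and 1626 and 1729 with PAX3-FOXO1, and a peak in all 10 RH30 lists. No filter for artefact-prone regions was applied here, and whether so high a value reflects open chromatin was not tested.

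DMRT2, a gene of early somite muscle development, held 7 stronger and 0 weaker of 11 shared regions. Its leading region, on chromosome 9 from 1050005 to 1050626, went from percentiles 76.9 and 72.8 with vector to 98.2 and 96.6 with PAX3-FOXO1 (limma adjusted p 4.98e-07).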
